A study of Mus musculus with 9 samples.

Results

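The regulators of hepatocyte metabolism followed here in rat liver RNA were Ppara, Ppard, Pparg, Ppargc1b, Hnf4a, Nr5a2, Esrra, Esr1 and Thrb. They were taken by gene symbol, each matched 1 row, and they make up 9 of the 19686 genes of the count table. The libraries came from male Wistar rats, 3 in each of the groups labelled control, model and DSS, with 1 liver library per rat. Control rats drank purified water and model rats drank 15% fructose for 8 weeks, and both were gavaged with saline. DSS rats drank the same fructose solution and were gavaged with an extract of Danggui-Shaoyao-San, a multi-herb formula, at 1.8 g/kg. The study's methods say that only its methanol-water extract (HME) was sequenced, so the DSS group was read as that extract. All rats were fasted for 12 h before the liver was taken. The organism label says mouse, but Wistar is a rat strain and the genes carry rat Ensembl identifiers, so the animals were taken to be rats.

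Nuclear receptors are transcription factors that bind small lipophilic ligands and then exchange corepressors for coactivators on their target genes. The PPARs sense fatty acids: in the liver PPAR alpha (Ppara) drives the fasting programme of fatty acid oxidation, PPAR delta (Ppard) acts in oxidation and glucose use, and PPAR gamma (Pparg) is the adipocyte regulator that is low in normal liver and induced in fatty liver. PGC-1 beta (Ppargc1b) is a coactivator of such receptors, and ERR alpha (Esrra) is its orphan partner on mitochondrial genes. HNF4 alpha (Hnf4a) maintains hepatocyte identity, LRH-1 (Nr5a2) governs bile acid and sterol genes, and Esr1 and Thrb encode the estrogen receptor alpha and the thyroid hormone receptor beta.

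Total counts were 14345819 to 26837227 per library. Levels are given as CPM, the count of a gene relative to the TMM-scaled total of its library, and since gene lengths were not used, levels were compared between rats and not between genes. In a principal component analysis of the genes past a filter on low counts, model replicate 1 stood apart from the other 8 libraries. On the second component it lay at -59.3, against -16.6 for the next library. Results that rest on model replicate 1 are therefore given with and without it. Each of the 7 hepatocyte markers was detected, and their summed level was 112159 to 178774 CPM, whereas markers of pancreas and intestine summed to at most 1.13 and 1.32 CPM. In whole liver, fewer cells of a type and less RNA per cell cannot be told apart.

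Members were called and separated most often between the DSS and control groups, and Pparg was the member that passed the thresholds with edgeR. All 9 passed the filter on low counts in each of the 3 comparisons. A gene was called when its fold change was at least 0.5 on the log2 scale and its false discovery rate (FDR, adjusted over all genes tested with edgeR's quasi-likelihood test) was at most 0.01. In DSS against control, 1 of 9 members was called, where 1.48% of the 12633 genes tested were called, and DESeq2 called 2 of 9, where it called 6.09% of all genes. There 5 members, and 3074 of the 12633 genes, had an unadjusted edgeR p under 0.05. In model against control, 0 of 9 were called by edgeR, where 0.0801% of 12486 genes were called, and 0 of 9 by DESeq2, where 2.05% were called. There 2 members, and 1648 of the 12486 genes, had an unadjusted edgeR p under 0.05. In DSS against model, 0 of 9 were called by edgeR, where 0.136% of 12502 genes were called, and 1 of 9 by DESeq2, where 1.18% were called. There 3 members, and 1003 of the 12502 genes, had an unadjusted edgeR p under 0.05.

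Separation of the rats was more frequent than calls. The 3 values of one group lay wholly above or below the 3 of the other for 6 of 9 members in DSS against control (30.2% of all genes tested), 4 of 9 in model against control (21.1%) and 2 of 9 in DSS against model (14%). An exact permutation test of 3 against 3 rats cannot give a two-sided p below 0.1, so it was not used for single members. Each pair of comparisons shares 3 libraries, and their values are given side by side without counting them as separate support.

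**Figure D1:**
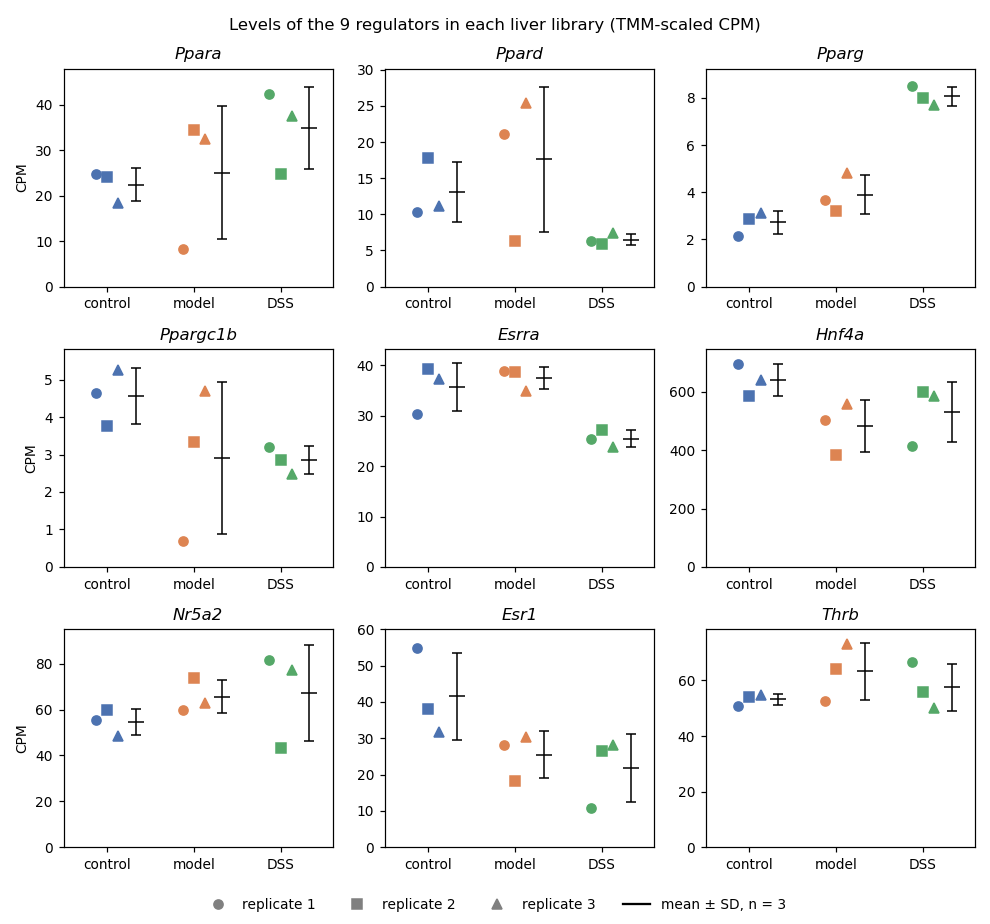
Level of each of the 9 regulators in TMM-scaled CPM (vertical axis, from 0, with its own range per gene) in the control, model and DSS groups. Points are single rats with a symbol per replicate number, and the bar beside them is the mean ± SD (n = 3). The 3 DSS points lie above the other 6 for Pparg, and for Esrra they lie below the other 6.

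Pparg was at its highest in the DSS group. Its levels were 2.16, 2.87 and 3.13 CPM in control rats, 3.68, 3.22 and 4.81 CPM in model rats, and 8.49, 7.99 and 7.70 CPM in DSS rats. The groups were therefore stepped without overlap, with means of 2.72 ± 0.4996 CPM in control, 3.90 ± 0.821 CPM in model and 8.06 ± 0.398 CPM in DSS (SD, n = 3). The library with the fewest Pparg reads held 47 counts. Pparg (ENSRNOG00000008839) rose in DSS against control, with a log2 fold change of 1.57 (SE 0.197, FDR 0.00295). Against model, the DSS rats had a log2 fold change of 1.051 (SE 0.218), which did not pass with edgeR (FDR 0.129) and passed with DESeq2 (FDR 0.00636). The difference of model from control was 0.53 (SE 0.277, FDR 0.474).

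The call of Pparg in DSS against control was close to the FDR threshold when a rat was left out. The log2 fold change stayed between 1.42 and 1.69 over the alternatives, but the FDR was 0.0108 without control replicate 1, 0.0111 without control replicate 2, 0.0155 without DSS replicate 1 and 0.0113 without DSS replicate 3. Marker sums of other cell types that can express Pparg were compared with it. The adipocyte markers found in the table, Adipoq with fewer than 10 counts in all and Cfd, summed to 8.30 to 18.2 CPM in control, 12.96 to 17.8 CPM in model and 13.1 to 22.0 CPM in DSS rats. The 10 Kupffer cell and leukocyte markers found summed to 339 to 751, 261 to 559 and 346 to 490 CPM in the same order, so that the groups overlapped for both lists. The 5 stellate cell markers summed to 91.6 to 102.3, 70.1 to 120 and 102.4 to 116 CPM, so the DSS rats lay above control by a narrow gap. Of these markers Reln alone separated them, at 32.6, 34.9 and 34.8 CPM in control and 46.2, 50.3 and 38.6 CPM in DSS rats. DSS and control rats overlapped for Lrat, Pdgfrb, Col1a1 and Rgs5. The part of these cell types in the Pparg level was not tested.

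Ppard was lowest in the DSS rats, and its model rats were split. It stood at 10.3, 17.8 and 11.1 CPM in control, 21.2, 6.31 and 25.4 CPM in model, and 6.26, 5.89 and 7.39 CPM in DSS rats. All 3 DSS values lay below all control values, while model replicate 2 lay within the DSS range and the other two model rats lay above every other rat. In DSS against control the log2 fold change of Ppard (ENSRNOG00000000503) was -1.005 (SE 0.225, FDR 0.0312), past the fold threshold but not the FDR of 0.01. DESeq2 called it, with an FDR of 0.00246, while the edgeR FDR in 1 fit of 9 libraries was 0.243. In DSS against model the value was -1.43 (SE 0.448, FDR 0.422), and without model replicate 2 it was -1.83 with an FDR of 0.0119. Without model replicate 3 it was -1.08 (FDR 0.707), and without DSS replicate 1 it was -1.41 (FDR 0.907). Model differed from control by 0.44 (SE 0.467, FDR 0.730), which was 0.10 without model replicate 3 and 0.83 without model replicate 2.

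Ppara spread most among the model rats, with 1 library far below the other two. Its levels were 24.8, 24.2 and 18.4 CPM in control, 8.27, 34.6 and 32.4 CPM in model, and 42.3, 24.9 and 37.5 CPM in DSS rats. The DSS rats lay above the control rats, with a narrow gap between DSS replicate 2 and control replicate 1, and the model rats spanned both groups. In DSS against control Ppara (ENSRNOG00000021463) had a log2 fold change of 0.63 (SE 0.204, FDR 0.102), and 0.83 (FDR 0.0217) without DSS replicate 2. It was 0.48 (FDR 0.267) without DSS replicate 1, and the FDR was 0.476 in 1 fit of 9 libraries. Model against control gave 0.14 (SE 0.453, FDR 0.919). Without model replicate 1 the mean of the model group was 33.5 CPM, the difference of model from control was 0.56 (FDR 0.150) and that of DSS from model was 0.07, against 0.49 (SE 0.470, FDR 0.861) with all rats.

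Shifts between rats in the balance of the PPAR transcripts can be read from ratios of their counts in the same library, which no scaling affects. Since gene lengths were not used, a ratio does not say which transcript was the more abundant. The ratio of Pparg to Ppard counts was 0.210, 0.161 and 0.281 in control, 0.174, 0.510 and 0.190 in model, and 1.36, 1.36 and 1.04 in DSS rats. The ratio was thus higher in each DSS rat than in the other 6 rats. The ratio of Ppara to Ppard counts was 2.41, 1.36 and 1.65 in control, 0.391, 5.48 and 1.28 in model, and 6.77, 4.23 and 5.08 in DSS rats. Here model replicate 2 lay within the DSS range and model replicate 1 was lowest. These ratios were chosen after the levels were seen and were not tested.

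**Figure D2:**
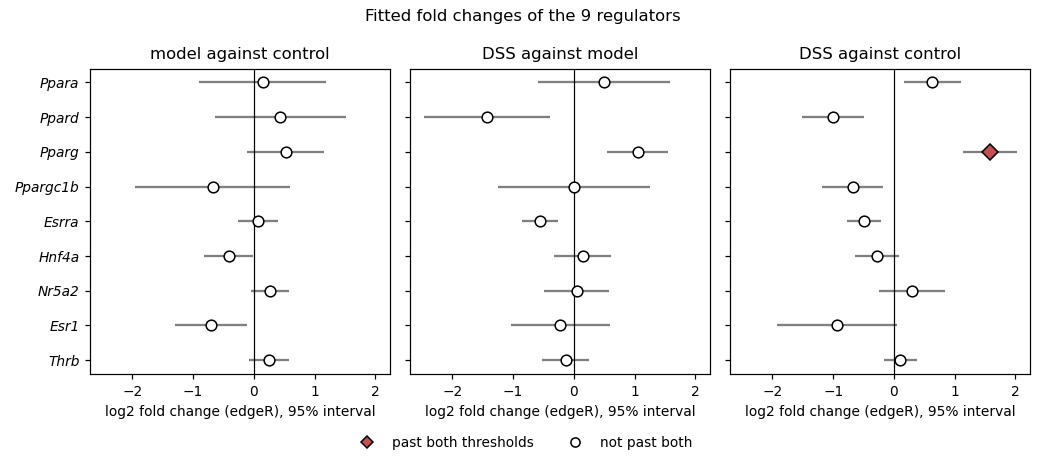
Fitted log2 fold change of each regulator (horizontal axis, edgeR) with its 95% interval in model against control, DSS against model and DSS against control. The filled diamond marks the value past both thresholds, which is Pparg at 1.57 in DSS against control, and open circles mark values not past both.

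Ppargc1b, the coactivator, was lower in DSS than in control rats. It stood at 4.65, 3.76 and 5.26 CPM in control, 0.685, 3.35 and 4.69 CPM in model, and 3.21, 2.86 and 2.48 CPM in DSS rats. The lowest value, in model replicate 1, rested on 16 counts, with an exact Poisson interval of 0.392 to 1.11 CPM that covers counting error only, and lay below every other rat. Ppargc1b (ENSRNOG00000017503) differed between DSS and control by -0.68 on the log2 scale (SE 0.220, FDR 0.0955), without overlap of the rats. Model against control gave the same size, -0.68, with a wider error (SE 0.557, FDR 0.647), and it was -0.20 without model replicate 1. DSS against model was 0.00074 (SE 0.542) with all rats and -0.49 (FDR 0.744) without that library.

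Esrra, which partners PGC-1 coactivators, separated the DSS rats from both other groups. Its levels were 30.3, 39.4 and 37.3 CPM in control, 38.8, 38.7 and 34.9 CPM in model, and 25.4, 27.2 and 23.8 CPM in DSS rats. The lowest control rat and the highest DSS rat were 30.3 and 27.2 CPM. Esrra (ENSRNOG00000021139) had a log2 fold change of -0.55 in DSS against model (SE 0.128, FDR 0.191) and -0.49 in DSS against control (SE 0.127, FDR 0.0498), neither of which passed both thresholds. With DESeq2 the FDR was 0.0458 and 0.0326. Model and control means were 37.5 ± 2.24 and 35.7 ± 4.73 CPM (SD, n = 3), a difference of 0.07 (FDR 0.866) that became -0.07 when libraries were scaled by their size alone.

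Hnf4a, the identity factor of hepatocytes, was lower in the model rats than in control. It was measured at 697, 587 and 641 CPM in control, 506, 385 and 558 CPM in model, and 413, 598 and 586 CPM in DSS rats. The 3 model rats lay below the 3 control rats, while DSS rats overlapped both groups. The log2 fold change of Hnf4a (ENSRNOG00000008895) in model against control was -0.41 (SE 0.176), with an unadjusted p of 0.0475 and an FDR of 0.371, and it was -0.27 without model replicate 2. The values for DSS against model and DSS against control were 0.15 (FDR 0.905) and -0.27 (FDR 0.333). Without model replicate 2 the first was 0.0028, and without DSS replicate 1, the lowest DSS rat, the second was -0.11.

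Nr5a2, the LRH-1 gene, had its DSS rats on both sides of the other groups. It stood at 55.4, 59.8 and 48.5 CPM in control, 60.003, 73.6 and 63.0 CPM in model, and 81.4, 43.1 and 77.2 CPM in DSS rats. The model rats lay above control by a narrow gap (60.003 against 59.787 CPM), and DSS replicate 2 was the lowest of the 9 rats. The log2 fold changes of Nr5a2 (ENSRNOG00000000653) were 0.26 (SE 0.137, FDR 0.471) in model against control, 0.04 (FDR 0.974) in DSS against model and 0.30 (SE 0.233, FDR 0.482) in DSS against control. The last became 0.54 (FDR 0.0432) without DSS replicate 2 and 0.14 (FDR 0.805) without DSS replicate 1.

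Esr1 was highest in the control rats. Its levels were 54.955, 38.0 and 31.8 CPM in control, 28.1, 18.1 and 30.2 CPM in model, and 10.9, 26.5 and 28.012 CPM in DSS rats. All 6 fructose-drinking rats lay below the 3 control rats, and model and DSS overlapped. For Esr1 (ENSRNOG00000019358) the log2 fold change was -0.70 (SE 0.256, unadjusted p 0.0241, FDR 0.296) in model against control and -0.45 without control replicate 1. It was -0.94 (SE 0.398, FDR 0.222; DESeq2 FDR 0.0357) in DSS against control, and -0.61 without DSS replicate 1, the lowest rat. DSS against model was -0.22 (SE 0.355, FDR 0.920) with all rats and 0.10 without that rat.

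Thrb varied least of the 9. It was at 50.9, 53.9 and 54.8 CPM in control, 52.6, 64.3 and 73.0 CPM in model, and 66.8, 55.7 and 49.98 CPM in DSS rats. All 3 groups overlapped each other. The log2 fold changes of Thrb (ENSRNOG00000006649) were 0.25 (SE 0.145, FDR 0.513), -0.13 (SE 0.169, FDR 0.895) and 0.11 (SE 0.119, FDR 0.633) in model against control, DSS against model and DSS against control. For DSS against control the 95% interval ran from -0.16 to 0.38.

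The order of the group means differed between the members. The ascending order was control, model, DSS for Ppara, Pparg and Nr5a2. Of the neighbours in that order, both pairs were free of overlap for Pparg, control and model for Nr5a2, and neither pair for Ppara. The DSS mean was lowest for Ppard, Ppargc1b, Esrra and Esr1, and its rats did not overlap those of the next group for Ppard and Esrra but did for Ppargc1b and Esr1. The model mean was lowest for Hnf4a and highest for Thrb, where all neighbours overlapped. Around each member's own mean over the 9 libraries, the root mean square spread on the log2 scale was 0.78 for Ppargc1b, 0.76 for Ppard, 0.67 for Pparg, 0.66 for Ppara and 0.61 for Esr1. It was 0.29 for Nr5a2, 0.27 for Esrra, 0.27 for Hnf4a and 0.18 for Thrb. For Ppargc1b and Ppara the largest deviation was model replicate 1, at -2.004 and -1.59, and for Esr1 it was DSS replicate 1, at -1.32.

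**Figure D3:**
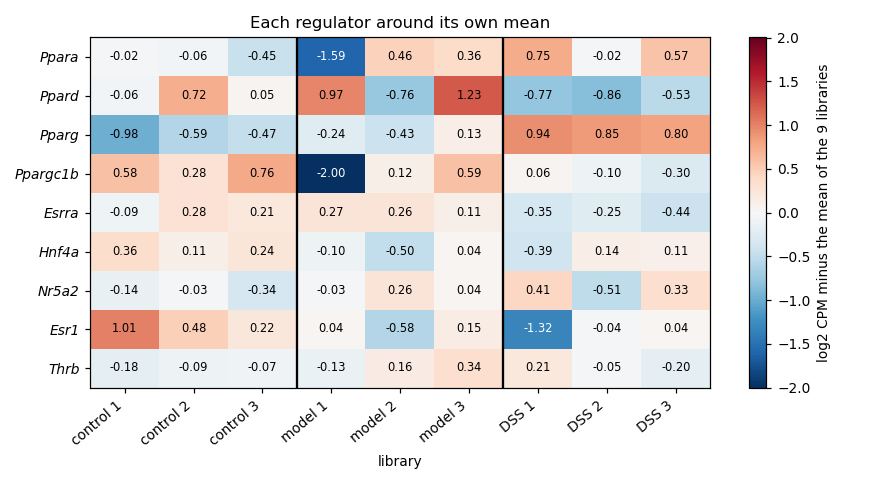
Level of each regulator (rows) in each library (columns) as log2 CPM minus the mean of the 9 libraries, printed in each cell and coloured from blue (below the mean) to red (above). Model replicate 1 holds the lowest cells of the map, -2.004 for Ppargc1b and -1.59 for Ppara, and the DSS columns are red throughout for Pparg and blue throughout for Ppard and Esrra.

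Known target genes of PPAR alpha, mostly enzymes of fatty acid oxidation, were compared with the level of their receptor. Of the 25 tested, 21 were higher and 4 lower in model than in control, with a median log2 difference of 0.45 against -0.0011 for all genes. In that comparison edgeR called none of them. An unadjusted edgeR p under 0.05 was found for 11 higher genes, and in either direction for 1648 of all 12486 genes. DESeq2 called 4 as higher, where it called 2.05% of all genes in either direction. Model rats lay wholly above control rats for 10 of 25 and wholly below for none, where the groups did not overlap in either direction for 21.1% of all genes. With scaling by library size alone 18 were higher and 7 lower. In DSS against model, where the same model libraries are set against the DSS rats, 4 were higher and 21 lower (median -0.10), and in DSS against control 17 were higher and 8 lower (median 0.22). Cpt1a, the gatekeeper of mitochondrial fatty acid import, was the target that passed with edgeR. It stood at 109, 98.7 and 108 CPM in control, 140, 138 and 98.4 CPM in model, and 327, 281 and 319 CPM in DSS rats. Cpt1a rose in DSS against control by 1.55 on the log2 scale (SE 0.116, FDR 0.000271), and its value in DSS against model was 1.30 (SE 0.172, FDR 0.0273; DESeq2 FDR 1.51e-08). DESeq2 called 6 targets as higher and 1 as lower in DSS against control, and 1 of each in DSS against model. Of all genes it called 6.09% and 1.18% in these comparisons.

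The other PPAR alpha targets did not pass with edgeR. Cyp4a2, a fatty acid hydroxylase, had the highest value in model against control, 3.74 (SE 0.914, FDR 0.130), with model rats at 304, 32.4 and 475 CPM and control rats at 7.86, 27.5 and 25.7 CPM. DESeq2 called Cyp4a2 in DSS against control (FDR 0.000615). Angptl4, an inhibitor of lipoprotein lipase, was at 271, 106 and 225 CPM in model and 49.3, 42.9 and 52.9 CPM in DSS rats. Its log2 fold change in DSS against model was -2.05 (SE 0.323, FDR 0.0496), with an FDR of 2.46e-08 by DESeq2 and 0.00430 without model replicate 2. Without DSS replicate 2 the FDR was 0.233. Angptl4 thus lay lower in DSS rats where Cpt1a lay higher.

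In 6 tested genes of PPAR gamma action and lipid storage edgeR called none in any comparison. All 6 were higher in model than in control (median 0.58, or 0.27 without model replicate 1), and 4 of 6 were lower in DSS than in model (median -0.36), while Pparg itself was higher in DSS than in model. Lpl, lipoprotein lipase, had the highest value in the first and the lowest in the second, 1.505 (FDR 0.116; DESeq2 FDR 0.00311) and -1.11 (FDR 0.141; DESeq2 FDR 0.00739), with 4.61, 2.99 and 1.799 CPM in control, 7.495, 7.85 and 11.8 CPM in model and 3.97, 3.94 and 4.55 CPM in DSS rats. In DSS against control, where Pparg was called, 4 of the 6 genes were higher and 2 lower (median 0.46).

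Oxidative genes under ERR and PGC-1 control lay mostly lower in DSS rats, by small amounts that did not pass with edgeR or DESeq2. Of the 18 tested, 15 were lower in DSS than in model (median -0.17) and 13 were lower in DSS than in control (median -0.15, or -0.28 with all 18 lower when scaled by library size alone). DSS rats lay wholly below for 7 and 6 of 18, beside 14% and 30.2% of all genes whose groups did not overlap in either direction. The median of all genes was 0.00078 and -0.0080 in these comparisons. Idh3a, a subunit of isocitrate dehydrogenase, had the largest difference in DSS against control, -0.55 (SE 0.129, FDR 0.0360), at 27.4, 29.5 and 27.9 CPM in control and 17.2, 22.5 and 18.3 CPM in DSS rats. In model against control the list had 10 genes higher and 8 lower, and 4 higher and 14 lower with scaling by library size alone.

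The 12 HNF4 alpha targets, apolipoproteins and other secreted or metabolic hepatocyte proteins, lay above control in the model group although Hnf4a itself lay below it. All 12 were higher in model than in control (median 0.30), but 8 of 12 were with scaling by library size alone (median 0.12), and the median was 0.01 without model replicate 1. None was called by edgeR in any comparison, and DESeq2 called 2 in DSS against control, F9 (FDR 0.00111) and Apoa1 (FDR 5.27e-05). DESeq2 called 6.09% of all genes there. Apoa1, the main protein of high-density lipoprotein, was at 1025, 1092 and 853 CPM in control, 1662, 764 and 727 CPM in model and 1525, 1611 and 2078 CPM in DSS rats. Its difference of DSS from control was 0.81 (SE 0.160, FDR 0.0205), and without the filter on low counts its FDR was 0.00208. In 1 fit of 9 libraries that FDR was 0.165. Apoc3, an inhibitor of triglyceride clearance, had the highest value in model against control, 0.54 (FDR 0.429), and the lowest in DSS against model, -0.53 (FDR 0.659), which were 0.20 and -0.20 without model replicate 1.

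Among the 7 targets of LRH-1 reported here, 3 genes of sterol and bile acid handling were called by edgeR while Nr5a2 was not. Of all genes, edgeR called 0.136% in DSS against model and 1.48% in DSS against control. Abcg5 and Abcg8, the paired subunits of the sterol exporter of the canalicular membrane, rose in DSS against model by 6.14 and 6.69 on the log2 scale (SE 0.409 and 0.455, both FDR 0.00163). Abcg5 was at 14.6, 5.55 and 7.93 CPM in control, 0.685, 0.772 and 0.617 CPM in model and 75.1, 31.6 and 39.8 CPM in DSS rats, so each group stood apart. Without model replicate 1 the FDR was 0.0327 for Abcg5 and 0.0214 for Abcg8, and without model replicate 3 it was 0.0137 for Abcg5. Cyp8b1, which sets the proportion of cholic acid, rose in DSS against control by 2.43 (SE 0.193, FDR 0.000367), at 115, 193 and 132 CPM in control, 373, 371 and 501 CPM in model and 789, 796 and 793 CPM in DSS rats. Cyp7a1, the rate-limiting enzyme of bile acid synthesis, was at 283, 488 and 454 CPM in control and 43.1, 103 and 198 CPM in DSS rats, a difference of -1.84 (SE 0.595, FDR 0.142). In model against control DESeq2 called 1 of the 7 as higher and 2 as lower, where it called 2.05% of all genes. It called 3 as higher in DSS against model (1.18% of all genes) and 4 as higher in DSS against control (6.09%). The list's median was -0.24 in model against control, 0.57 in DSS against model and 0.74 in DSS against control.

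Genes of the thyroid hormone response were called by edgeR where Thrb was not. Of the 12 tested, 3 were called as higher in DSS against control, where edgeR called 1.48% of all genes. Klf9, a receptor-induced transcription factor, rose by 1.69 (SE 0.191, FDR 0.00244). Dio1, the deiodinase that activates the hormone, rose by 0.87 (SE 0.138, FDR 0.00860). Cpt1a, which also stands among the PPAR alpha targets, was the other. Dio1 lost its call when any 1 of the 6 rats was left out, with an FDR of up to 0.0380, and Klf9 did so without control replicate 1 (FDR 0.0171). In 1 fit of 9 libraries the FDR was 0.0365 for Klf9 and 0.0206 for Dio1. With the replicate block it was 0.0115 for Klf9 and 0.0273 for Dio1. Me1, the malic enzyme that supplies NADPH for fatty acid synthesis, fell in DSS against model, to 26.3, 28.6 and 24.8 CPM from 131, 97.7 and 110 CPM (log2 fold change -2.08, SE 0.156, FDR 0.00190). The FDR of Me1 was up to 0.0209 without model replicate 3 or any 1 of the DSS rats. It was 0.0233 in 1 fit of 9 libraries and 0.0126 with the replicate block. Thrsp, a lipogenic gene named for its thyroid response, had values of -2.33 (FDR 0.0984; DESeq2 FDR 7.03e-07) in DSS against model and -2.82 (FDR 0.0249; DESeq2 FDR 4.39e-07) in DSS against control. In the latter the edgeR FDR was 0.00324 without DSS replicate 1, 0.00711 without DSS replicate 3 and 0.00727 in 1 fit of 9 libraries. Without DSS replicate 2 the edgeR FDR of Thrsp was 0.0866 in DSS against control and 0.374 in DSS against model. The list had 7 genes higher and 5 lower in DSS against model and 6 of each in DSS against control. For estrogen-linked genes, 4 were tested and none was called by edgeR or DESeq2, with 3 of 4 lower in model than in control (median -0.83). Prlr, the prolactin receptor, was at 55.1, 34.3 and 5.73 CPM in control, 3.94, 0.515 and 41.2 CPM in model and 1.90, 11.3 and 11.3 CPM in DSS rats, so the groups overlapped.

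Of the 28 other nuclear receptors tested and reported here, edgeR called none, and DESeq2 called Nr1d1 and Nr1d2 in DSS against control (FDR 5.87e-12 and 3.50e-05). DESeq2 called 6.09% of all genes in that comparison. Nr1d1, the heme-sensing repressor REV-ERB alpha of the clock, had the highest value in DSS against control, 4.12 (SE 0.474, FDR 0.0111), at 8.54, 2.03 and 5.66 CPM in control, 13.2, 81.7 and 27.3 CPM in model and 105, 101 and 83.8 CPM in DSS rats. Its FDR was 0.00998 with at least 10 counts required in every library, 0.009998 without control replicate 1 and 0.000147 without control replicate 2. Without control replicate 3 the FDR of Nr1d1 rose to 0.0507. Rora, another receptor of the clock, had the lowest value, -0.85 (SE 0.222, FDR 0.0514), at 6.69, 6.81 and 4.26 CPM in control and 3.32, 3.35 and 3.26 CPM in DSS rats, which lay below every control rat. The list had a median of 0.19 in model against control, -0.01 in DSS against model and 0.19 in DSS against control. Of the 17 coregulators tested and reported here none was called by edgeR or DESeq2, with medians of -0.10, 0.10 and -0.04 in the same order. None of 12 further hepatocyte transcription factors was called by edgeR. DESeq2 called 1 as higher and 1 as lower in model against control, where it called 2.05% of all genes. In DSS against control it called 1 as higher (6.09% of all genes). Onecut1 (HNF6) had the lowest value in model against control, -2.54 (SE 0.580, FDR 0.117; DESeq2 FDR 6.75e-05), with 17.1, 6.57 and 30.8 CPM in control and 1.58, 3.67 and 4.26 CPM in model rats. DSS rats were at 33.8, 49.5 and 4.24 CPM for Onecut1. Its value in DSS against model was 3.23, the highest of the list, with an FDR of 0.0211 to 0.709 over the alternatives.

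**Figure D4:**
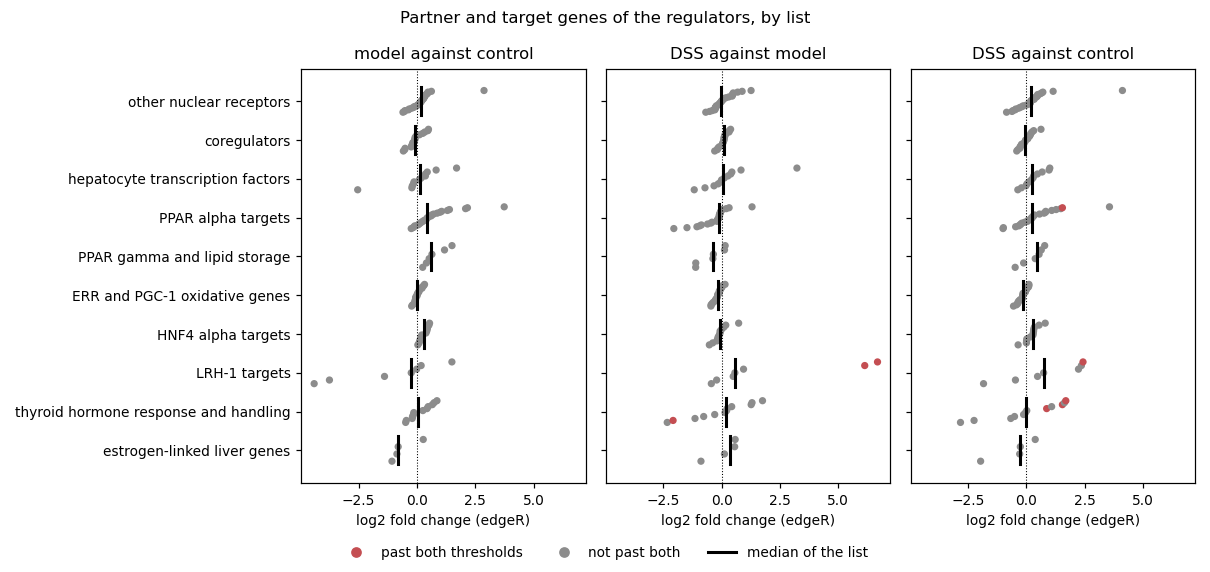
Fitted log2 fold change (horizontal axis, edgeR) of every tested and reported gene of 10 lists of partner and target genes in the 3 comparisons, 1 point per gene, with a black bar at each list's median. Red points passed both thresholds with edgeR: 2 in the LRH-1 list (Abcg5 and Abcg8) and 1 in the thyroid list (Me1) in DSS against model, and in DSS against control Cpt1a in both of its lists, Cyp8b1, Klf9 and Dio1.

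Genes with the pattern most like the 3 most variable members were sought over the 9 libraries among 10101 genes, by the root mean square difference of log2 CPM after centring. Nearest to Ppard were Plin2, the coat protein of hepatocyte lipid droplets (0.304), the clock activator gene Arntl (0.355) and Klhdc8a (0.357). Plin2 was at 184, 249 and 183 CPM in control, 412, 125 and 338 CPM in model and 65.8, 91.2 and 155 CPM in DSS rats. It thus shared with Ppard the low value of model replicate 2 and the high values of the other two model rats. Arntl was at 17.1, 23.0 and 16.3 CPM in control, 34.6, 17.3 and 36.7 CPM in model and 11.5, 14.4 and 17.3 CPM in DSS rats. Nr1d1, a clock gene, was by contrast highest among the model rats in replicate 2. The time of day at which each rat was killed is not given in the sources used here, and its part in the Ppard level was not tested.

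Nearest to Pparg were Pcbp4, an RNA-binding protein gene (0.226), Gabarapl1, an autophagy gene (0.245), and Uap1l1 (0.272). Gabarapl1 was at 121, 127 and 155 CPM in control, 225, 190 and 210 CPM in model and 375, 282 and 301 CPM in DSS rats, stepped like Pparg. Nearest to Ppargc1b were Spty2d1 (0.238), Sqor, the mitochondrial sulfide oxidase (0.259), and Slc10a5 (0.274). All 3 had their lowest value in model replicate 1, where Sqor was at 32.3 CPM against 84.3 to 136 CPM in the other 8 rats. The 9 libraries behind these likenesses are the same for all genes, and no test was made of them.

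**Figure D5:**
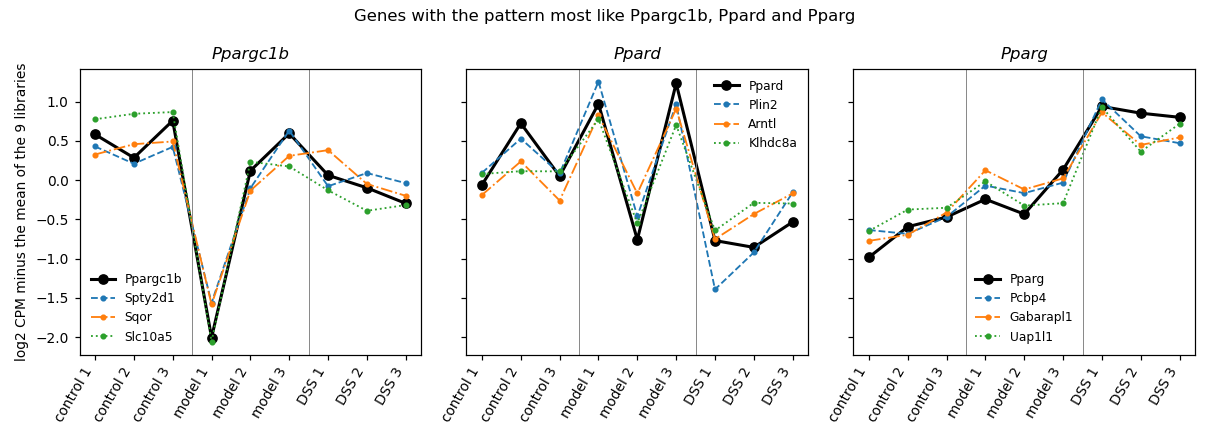
Log2 CPM minus the mean of the 9 libraries (vertical axis) in each library for Ppargc1b, Ppard and Pparg (black) and the 3 genes whose pattern is nearest to each (coloured lines). The Ppargc1b panel is set by the low point of model replicate 1 at -2.004, the Ppard panel by the split of the model rats, and the Pparg panel by the step from control to DSS.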

How the data were processed

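Liver RNA of 9 rats was sequenced. The authors aligned reads with HISAT2, counted them per gene with HTSeq 0.6.1 in its unstranded mode and deposited raw whole-number counts. The submitters' processing notes name the Rnor 6.0 build. Reads of overlapping genes on either strand can therefore not be told apart. A further deposited table of assembled transcripts was not used, and no rat genome, coordinate or sequence was used.

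Counts were fitted with edgeR 4.0.16 in R 4.3.3 on the 6 libraries of each pair of groups (filterByExpr, TMM, robust quasi-likelihood, two-sided), and adjusted over all genes tested by Benjamini-Hochberg. The thresholds, 0.5 on the log2 scale and FDR of 0.01, follow the study. DESeq2 1.42.0 was the alternative test. Other alternatives were the scaling, the filter, 1 fit over 9 libraries, a replicate block and leaving out each rat. CPM use a prior count of 2 on the log2 scale. The scripts were tested on simulated data.

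The 9 members, the gene lists and the naming rule were chosen with earlier results of these data known. Named were all members, and in each list the genes past the thresholds and the highest and lowest fold change per comparison. F9 and Nr1d2 were named after their values were seen. Listed genes not matched by symbol (among them Nr3c1, Esr2, Cd36 and Plin1) were not analysed here, and some single genes are not reported here and were left out of the lists. Plin2, Arntl and the other genes of like pattern had a mean count of at least 50. Replicates are separate rats with 1 library each, whose counts differed by more than sampling noise, with a chi-square per gene of 18.2 to 65.9 between rats of 1 group.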

Additional observations from a re-analysis of the deposited data

How the results depend on the processing

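Of 351 fold changes of members recomputed under the alternatives, 324 kept their direction and their side of both thresholds. The number of members called in DSS against control, 1 by edgeR, was 2 without the filter on low counts, with DESeq2 and at an FDR of 0.05, was 0 with the replicate block, and lay between 0 and 1 when a rat was left out. In DSS against model it was 1 with DESeq2 and 0 otherwise, and in model against control it was 0 throughout. All genes called in model against control numbered 71 without the filter, 256 with DESeq2, 25 in 1 fit of 9 libraries, 75 at an FDR of 0.05 and 0 to 10 with a rat left out. In DSS against model they numbered 11 with library size alone, 38 without the filter, 147 with DESeq2, 57 at an FDR of 0.05 and 2 to 12 with a rat left out. In DSS against control they numbered 489 without the filter, 769 with DESeq2, 113 in 1 fit of 9 libraries, 804 at an FDR of 0.05 and 86 to 132 with a rat left out. The cause of these shifts was not tested.

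Library size alone moved the median of all genes by -0.14 on the log2 scale in model against control and in DSS against control, and turned Esrra (-0.067) and Mttp (-0.11) in the first and Cox6a1 (-0.025) and Thrb (-0.021) in the second. Ppargc1b in DSS against model was near 0 with either sign, at -0.041 with library size alone, -0.0035 with DESeq2 size factors, -0.015 with DESeq2 and -0.0028 in 1 fit of 9 libraries.

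Replicate numbers did not pair the rats: correlations of same-numbered deviations from the group means lay between -0.23 and -0.021. With the replicate block, 0 genes were called in model against control, 7 in DSS against model and 104 in DSS against control, and no same-numbered pair correlated above 0. Under the block Ppara in model against control was -0.052, and in DSS against model Cidea was -0.24 and Nr5a2 -0.00070.

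Some uncalled fold changes turned sign when a rat was left out. In model against control the ranges were -0.45 to 0.019 for Ehhadh, -0.033 to 0.15 for Esrra, -0.015 to 0.12 for Mttp and -0.16 to 0.56 for Ppara. In DSS against model they were -0.32 to 0.66 for Cidea, -0.44 to 0.097 for Esr1, -1.09 to 0.32 for Cyp7a1, -0.68 to 0.50 for Lpin1, -0.069 to 0.72 for Ncoa2, -0.12 to 0.28 for Nr5a2, -0.49 to 0.55 for Ppargc1b and -1.45 to 1.83 for Prlr. In DSS against control Thrb ranged from -0.0090 to 0.21. Pparg and Ppargc1b rest on 16 to 156 counts per library.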

Other observations

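Some other partner genes of the lists described above also stood apart, in a group or in a single rat. Atf5, a stress-response transcription factor of hepatocytes, had the highest value of the hepatocyte factors in model against control, a log2 fold change of 1.70 (SE 0.301, edgeR FDR 0.0598; DESeq2 FDR 1.69e-06). The Atf5 value was 1.36 without model replicate 1, and its edgeR FDR was 0.196 without control replicate 1. Its levels were 247, 282 and 166 CPM in control, 1049.7, 514.6 and 690.4 CPM in model and 369.8, 513.5 and 487 CPM in DSS rats, so the groups did not overlap, with model and DSS close at 514.6 and 513.5 CPM. Tbl1xr1, a subunit of the corepressor complexes that hold nuclear receptors silent, had the highest value of the coregulators in DSS against control, 0.63 (SE 0.206, FDR 0.109), and 0.40 without DSS replicate 1. Ncoa2, a steroid receptor coactivator, was at 8.82 CPM in model replicate 1 and at 35.4 to 46.3 CPM in the other 8 rats, and the same library was lowest for Ppara and Ppargc1b. Foxa2, a pioneer factor of the liver, was at 70.7 CPM in DSS replicate 1 and at 18.0 to 27.8 CPM in the other 8 rats.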
